A study of Mus musculus with 27 samples.

Results

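Spp1, Ibsp, Dmp1 and Mepe encode osteopontin, bone sialoprotein, dentin matrix protein 1 and matrix extracellular phosphoglycoprotein. They are members of the SIBLING family (small integrin-binding ligand, N-linked glycoproteins) and lie side by side on mouse chromosome 5. Their rows were found in the deposited table by gene symbol, 4 of the 30153 mouse genes used, and all 4 were among the 18442 genes that passed a filter on low values (a normalized count of at least 10 in at least 3 libraries). The table held 27 RNA-seq libraries in 9 groups of 3 replicates, which were populations P1, P2 and P3 of muscle, periosteum and bone marrow from the femur and tibia region of mouse hindlimbs. The cells were tdTomato+ and CD45-, and were sorted as CD105- CD200+ (P1), CD105- CD200- (P2) or CD105+ with variable CD200 (P3). All mice were uninjured young adult Prx1-CreER, Ai14, Rag1-deficient animals of both sexes given tamoxifen, so that every group shared the Rag1 deficiency, the tamoxifen and the label. The CreER is driven by the Prx1 promoter, a limb mesenchyme promoter, and the tdTomato label stays on in the progeny of a labeled cell. The tissues of all groups came from the same animals, but which animal gave which library was not stated, so p-values measure the spread between libraries as if they were independent.

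SIBLING proteins are acidic, heavily phosphorylated proteins that are secreted into mineralizing matrix, where they bind calcium and, through an Arg-Gly-Asp motif, integrins on bone cells. Osteopontin is made by many cell types, including osteoblasts, hypertrophic chondrocytes, osteoclasts and macrophages, whereas bone sialoprotein is made mostly by osteoblasts and hypertrophic chondrocytes that lay down mineral. DMP1 and MEPE are made mainly by late osteoblasts and osteocytes, and both act in phosphate balance, as does the endopeptidase PHEX.

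In the GENCODE M21 annotation (GRCm38) all 4 genes are on the + strand within 238438 bp of chromosome 5. Dmp1 spans chr5:104202613-104214102, Ibsp chr5:104299171-104311469, Mepe chr5:104325329-104338611 and Spp1 chr5:104435118-104441050. The build and annotation used to make the table were not given in the sources used here, so these positions are those of the annotation. Because the 4 genes are neighbors in the same orientation and were together highest in bone marrow P1, the 250 bases before each RefSeq start site (GRCm38.p6, + strand, 5′ to 3′) are shown. They end at the RefSeq start site, and GENCODE M21 places the gene start further upstream for Ibsp, so that the last 116 bases of its window lie within the GENCODE gene, as do the last 4 of the Dmp1 window. Capitals mark matches to the CCAAT box (ATTGG when read on the other strand), to the TATA-like motif TTTAAA, to the TATA box, which is TATAAA or on the other strand TTTATA, and to the Runx core, which is ACCACA or on the other strand TGTGGT. The promoter windows are chr5:104202367-104202616 for Dmp1, chr5:104299037-104299286 for Ibsp, chr5:104325079-104325328 for Mepe and chr5:104434861-104435110 for Spp1.
Dmp1: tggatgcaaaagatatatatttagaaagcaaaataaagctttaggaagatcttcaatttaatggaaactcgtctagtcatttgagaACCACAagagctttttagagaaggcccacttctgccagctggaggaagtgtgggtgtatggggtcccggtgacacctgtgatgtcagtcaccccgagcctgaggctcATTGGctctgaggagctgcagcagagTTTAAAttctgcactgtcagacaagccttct
Ibsp: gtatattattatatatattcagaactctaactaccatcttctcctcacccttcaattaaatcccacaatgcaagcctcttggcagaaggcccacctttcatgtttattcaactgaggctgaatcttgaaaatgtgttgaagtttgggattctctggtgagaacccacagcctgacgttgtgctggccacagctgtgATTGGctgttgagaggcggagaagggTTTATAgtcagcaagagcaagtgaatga
Mepe: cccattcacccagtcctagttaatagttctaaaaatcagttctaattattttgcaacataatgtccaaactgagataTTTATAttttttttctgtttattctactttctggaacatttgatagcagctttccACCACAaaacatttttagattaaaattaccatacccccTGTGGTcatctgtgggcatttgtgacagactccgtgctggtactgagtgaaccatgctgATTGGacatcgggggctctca
Spp1: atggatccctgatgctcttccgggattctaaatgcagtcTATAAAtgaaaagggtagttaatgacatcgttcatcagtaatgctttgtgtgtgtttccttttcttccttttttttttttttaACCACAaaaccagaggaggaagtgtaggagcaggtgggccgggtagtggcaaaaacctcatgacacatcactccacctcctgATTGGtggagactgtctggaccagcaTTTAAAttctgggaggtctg

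An ATTGG, the CCAAT box read on the other strand, was present in all 4 windows, starting 57 bases before the start site in Dmp1, 54 in Ibsp, 46 in Spp1 and 21 in Mepe. Of all 32851 RefSeq promoter windows of the same length, 33.8% held this motif on either strand. Dmp1 and Spp1 also held TTTAAA, starting 31 and 20 bases before the start site, and Ibsp held TTTATA starting 28 bases before it, motifs found in 12.1% and 12.4% of all windows. Other TATA box matches lay farther upstream, starting 173 bases before the start site in Mepe and 211 in Spp1. The Runx core was present in Dmp1, Spp1 and, on both strands, Mepe, against 14% of all windows. These motifs were chosen after the sequences were seen, and a match of letters is not a measured binding site.

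Library sums of normalized counts ran from 8631880 to 26230900, and 12396 to 21675 genes were above 0. The osteoblast markers (Col1a1, Alpl, Bglap, Bglap2, Sp7, Phospho1, Ifitm5) summed to 2887100 to 4944820 in bone marrow P1, 719682 to 1352940 in periosteum P1 and 80679 to 141180 in muscle P1. Several groups carried RNA of genes that mark other cells. Erythroid markers summed to 3454710 to 12816400 in the P2 libraries of periosteum and bone marrow, and myofiber markers to 1797820 to 1951540 in muscle P2. The chondrocyte list (Col2a1, Acan, Sox9, Ihh, Col10a1, Mmp13, Pth1r) summed to 249271 to 607746 in periosteum P2, where Col2a1, the collagen of cartilage, averaged 401900 ± 176548 (SD, n = 3). This list also summed to 70816 to 398135 in periosteum P1 and 117205 to 201940 in bone marrow P1. In bone marrow P2, replicate 1 stood apart most in Mmp13 of the chondrocyte list, at 4692 against 412 and 54.6. It was also highest in Ihh (142 against 2.65 and 72.8) and Pth1r (58.2 against 0 and 0). Its Col2a1 was 243 against 70.8 and 290, and replicate 3 was highest in Col2a1, Col10a1, Acan and Sox9. In periosteum P3, replicate 2 stood apart most in Mmp9 of the osteoclast list, at 12783 against 195 and 65.5. It was also highest in Ocstamp (88.4 against 35.3 and 16.6), Calcr (54.9 against 0 and 0) and Oscar (21.7 against 0 and 5.51). Its Acp5, in contrast, was 1.78 against 1287 and 922 and its Ctsk 885 against 1551 and 2544. Leukocyte markers summed to 15749 to 54378 in bone marrow P1, compared with 7.43 to 74.4 in periosteum P1.

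Spp1 was highest in bone marrow P1, at 70831, 113804 and 93436 normalized counts in replicates 1 to 3. The other bone marrow populations were uneven, with 15403, 221 and 269 in P2 and 20071, 1282 and 12064 in P3. All 3 bone marrow P1 libraries exceeded every bone marrow P2 and P3 library. In periosteum, Spp1 did not separate the populations, with 16320, 80431 and 43069 in P1, 4027, 49732 and 57692 in P2, and 22937, 61881 and 37801 in P3. In muscle, P1 had 4038, 1473 and 3518 and P3 had 4380, 3679 and 3900, whereas P2 had 34.5, 31.5 and 210. Thus muscle P2 alone was low in that tissue, and P1 and P3 of muscle overlapped.

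Ibsp followed the P1 population more closely. In bone marrow, Ibsp was 151959, 188589 and 146098 in P1, 1188, 760 and 211 in P2, and 25776, 10926 and 10949 in P3, without any overlap between the 3 populations. In periosteum, P1 libraries had 23002, 101367 and 110191, P2 libraries 548, 1014 and 47.4, and P3 libraries 25608, 24803 and 29677. Here P2 was below every other library, and P1 replicate 1 fell below the 3 P3 libraries. In muscle, P1 had 2784, 6951 and 4967, P2 had 9.40, 12.0 and 80.8, and P3 had 2138, 2433 and 1539, again without overlap.

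Per kb of exon, mean Dmp1 was lower than mean Spp1 and Ibsp in all 3 P1 groups. Bone marrow P1 had 7110, 15475 and 7681 normalized counts, compared with 1076, 16.8 and 122 in P2 and 352, 9.58 and 478 in P3. Periosteum P1 was the most even, at 3132, 4467 and 4965, while P2 ran through 35.2, 5065 and 893 and P3 through 14.5, 2.61 and 492. One periosteum P2 library, replicate 2, therefore held as much Dmp1 as periosteum P1. Muscle had 251, 609 and 499 in P1, 13.7, 1.0 and 0 in P2, and 149, 31.2 and 128 in P3, so that muscle P1 was above both other populations in every library.

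Mepe had the largest median spread between replicates of the 4 genes, and was listed at 0 in 7 of 27 libraries, among them all 3 of muscle P2. In bone marrow it was 513, 1438 and 229 in P1, 344, 2.79 and 25.5 in P2, and 62.0, 0.954 and 3.74 in P3. In periosteum it was 10.7, 227 and 116 in P1, 412, 684 and 0 in P2, and 77.9, 0 and 0 in P3. The highest periosteal values were therefore in 2 P2 libraries, not in P1. Muscle values were 29.7, 0 and 17.0 in P1 and 3.28, 22.9 and 1.28 in P3. Dspp, which encodes dentin sialophosphoprotein of teeth and is the fifth gene of the family at this locus, did not pass the filter. It stood at 78.2 in bone marrow P2 replicate 1 and at most 2.84 elsewhere, and was listed at 0 in 23 libraries. The bone marrow P2 library with Dspp was the same one that held the highest Spp1, Ibsp, Dmp1 and Mepe of that group.

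**Figure D1:**
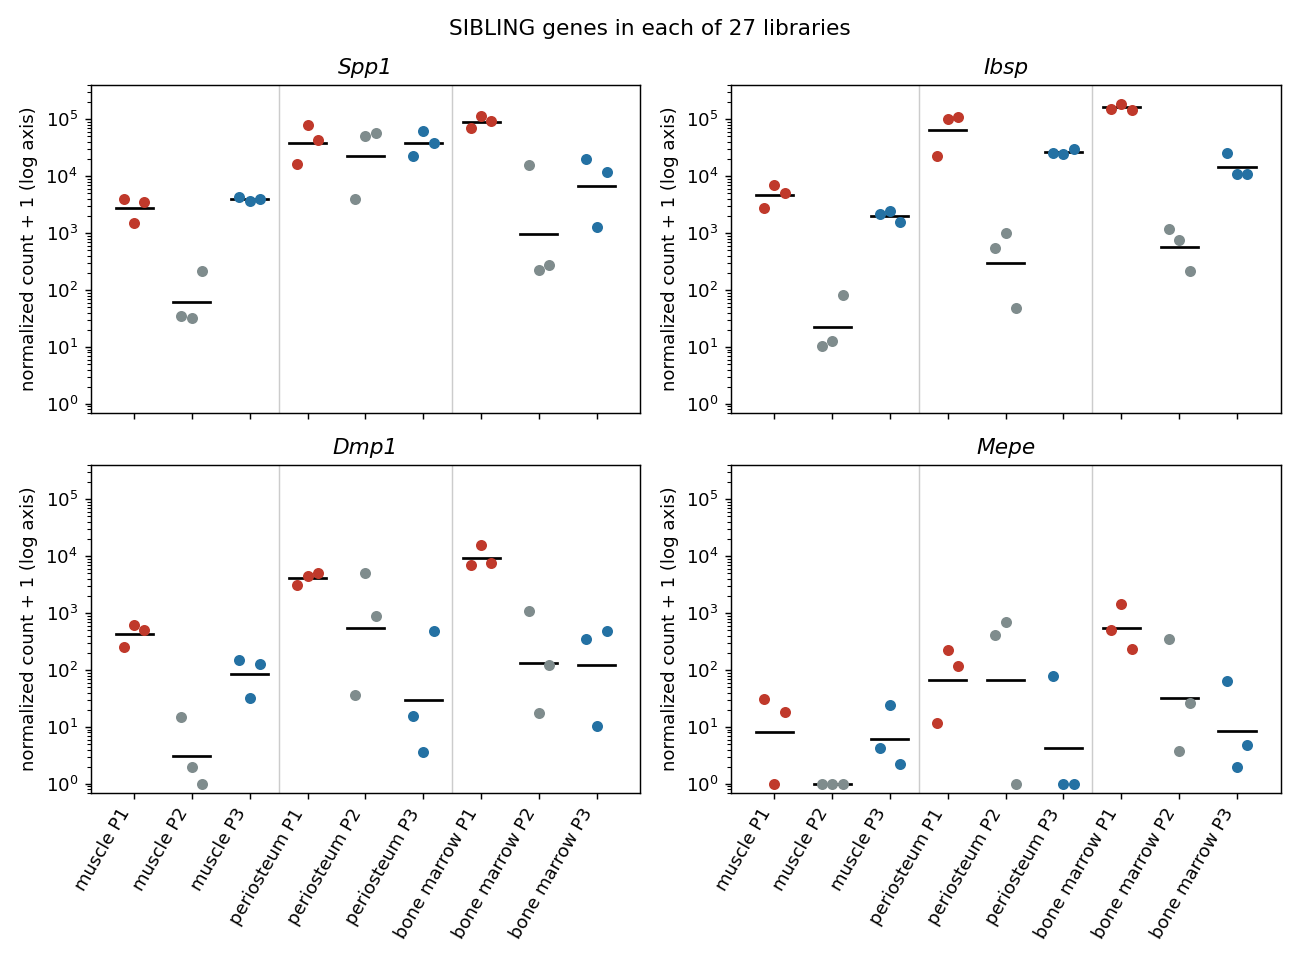
Normalized counts plus 1 (log axis) of Spp1, Ibsp, Dmp1 and Mepe in each of 27 libraries, with 3 points per group and a bar at the mean of the log2 values; P1 is red, P2 gray and P3 blue. Ibsp separated P2 from P1 and P3 in all 3 tissues, whereas Spp1 did so only in muscle; Mepe reached 1438 at most.

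The question of the sort was whether CD105- CD200+ cells (P1) differ from the other labeled cells of the same tissue. In bone marrow, 3 of the 4 members were higher in P1 than in the mean of P2 and P3, in a limma fit of log2(normalized count + 1) over all 27 libraries with Benjamini-Hochberg adjustment over 18442 genes. A gene counted as called when its adjusted p was under 0.05 and its absolute log2 fold change over 1.5, which held for 7.48% of all genes in this direction. Ibsp differed by 5.80 ± 0.74 (SE) on the log2 scale (adjusted p = 3.92e-06), Spp1 by 5.15 ± 1.05 (adjusted p = 0.00107) and Dmp1 by 6.22 ± 1.52 (adjusted p = 0.00499). Mepe had a difference of 5.07 ± 1.88 with an adjusted p of 0.0589. The median of all genes was -0.39 in this comparison. Leaving out bone marrow P2 replicate 1 kept the first 3 calls, at 6.14 for Spp1, 6.06 for Ibsp and 6.97 for Dmp1, and Mepe then also passed, at 5.92. Mepe passed as well when bone marrow P3 replicate 1 (5.80), periosteum P2 replicate 2 or 3, or periosteum P3 replicate 1 (each 5.07) was left out, and with a pseudocount of 5 (4.44), quantile normalization (5.88) or a fit of the 3 bone marrow groups alone (5.07). In sorted bulk libraries, fewer cells of a type and less RNA per cell cannot be told apart.

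Against each population by itself, bone marrow P1 was higher than P2 in Ibsp (8.13 ± 0.85, adjusted p = 1.51e-07), Spp1 (6.55 ± 1.22, adjusted p = 0.000256) and Dmp1 (6.15 ± 1.76, adjusted p = 0.00911), among 10.4% of all genes called higher. P1 was higher than P3 in Ibsp (3.47 ± 0.85, adjusted p = 0.0113) and Dmp1 (6.28 ± 1.76, adjusted p = 0.0273), among 3.46% of all genes, and Spp1 had 3.75 ± 1.22 with an adjusted p of 0.0628. Ibsp in bone marrow was thus ordered P1, P3, P2, with mean log2 levels of 17.30, 13.83 and 9.17.

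In periosteum, 2 of the 4 members were higher in P1 than in the mean of P2 and P3, among 4.32% of all genes. These were Ibsp (4.49 ± 0.74, adjusted p = 0.000235) and Dmp1 (5.0 ± 1.52, adjusted p = 0.0377). Spp1 had a difference of 0.39 ± 1.05 (adjusted p = 0.860), and Mepe 2.01 ± 1.88 (adjusted p = 0.537). The 2 called genes stood out from different populations. Ibsp was higher in P1 than in P2 by 7.73 ± 0.85 (adjusted p = 6.63e-07), the only member among the 10.1% of genes called, but differed from P3 by 1.26 ± 0.85 (adjusted p = 0.489). Dmp1, conversely, was higher in P1 than in P3 by 7.09 ± 1.76 (adjusted p = 0.0187), the only member among 1.39% of genes, but differed from P2 by 2.91 ± 1.76 (adjusted p = 0.256). The call of Dmp1 in periosteum was not held when any of 6 libraries was left out (the 3 P1 replicates, P2 replicate 1, or P3 replicate 1 or 2), with values from 4.02 to 5.20. In a fit of the 3 periosteum groups alone neither gene was called, at an adjusted p of 0.106 for Ibsp and 0.372 for Dmp1. The chondrocyte list summed to 249271 to 607746 in periosteum P2, 70816 to 398135 in P1 and 26585 to 92020 in P3. The part of this RNA in these results was not tested. Without periosteum P3 replicate 2, the library with high Mmp9, Ibsp differed by 4.47 and remained called.

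In muscle, Ibsp was the only member called, by 4.44 ± 0.74 (adjusted p = 0.00127), where 0.591% of all genes were called higher. Dmp1 had 4.71 ± 1.52 (adjusted p = 0.168), Spp1 2.47 ± 1.05 (adjusted p = 0.400) and Mepe 1.73 ± 1.88 (adjusted p = 0.964). The fit of the 3 muscle groups alone called Spp1 and Dmp1 too. The point estimates were larger against P2 than against P3. Against muscle P2 alone, Ibsp (7.69 ± 0.85, adjusted p = 1.85e-06), Dmp1 (7.10 ± 1.76, adjusted p = 0.0104) and Spp1 (5.46 ± 1.22, adjusted p = 0.00455) were called, among 3.59% of all genes. Against muscle P3 alone no member was called by limma, where 0.141% of genes were called higher and 0.325% lower. Ibsp had 1.19 ± 0.85, Dmp1 2.32 ± 1.76, Mepe 0.42 ± 2.17 and Spp1 -0.53 ± 1.22. Every member of that comparison had an adjusted p of 1. The muscle P2 libraries were the ones with myofiber markers at 1797820 to 1951540, against 22385 to 40680 in muscle P1 and 1218 to 2999 in muscle P3, and the part of that RNA in the low SIBLING values was not tested.

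**Figure D2:**
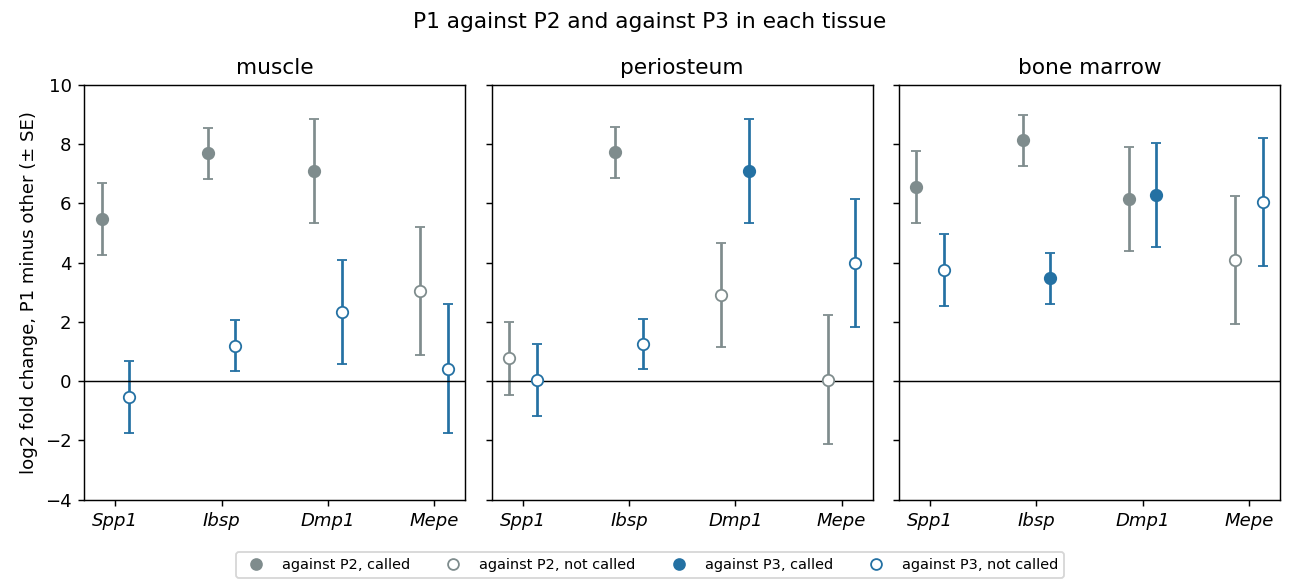
Log2 fold change (± SE) of each gene in P1 minus P2 (gray) and P1 minus P3 (blue) in each tissue, with filled points where the gene was called. Ibsp was called against P2 in all 3 tissues and against P3 only in bone marrow, where it was 3.47; Mepe was called in none of the 6 comparisons.

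The size of the P1 difference was also compared between tissues. No member was called in these tests, against 2.44%, 7.41% and 2.8% of all genes called in either direction for periosteum minus muscle, bone marrow minus muscle and bone marrow minus periosteum. The member nearest the threshold was Spp1, whose P1 change was larger in bone marrow than in periosteum by 4.75 ± 1.49 (unadjusted p = 0.00400, adjusted p = 0.0905, limma). Without bone marrow P2 replicate 1 this difference was 5.75 and called, and without periosteum P2 replicate 1 it was 5.37 and called. The Spp1 differences were 2.68 ± 1.49 for bone marrow minus muscle and -2.07 ± 1.49 for periosteum minus muscle.

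P1 was next compared between tissues, and the calls were in Spp1 and Ibsp. Bone marrow P1 exceeded muscle P1 in Spp1 (5.04 ± 1.22, adjusted p = 0.00760) and Ibsp (5.14 ± 0.85, adjusted p = 0.000226), 2 of 4 members, against 2.94% of all genes called higher. Dmp1 had 4.48 ± 1.76 (adjusted p = 0.134) and Mepe 6.08 ± 2.17 (adjusted p = 0.0900). Both were called in a fit of these 2 groups alone, and Mepe also without periosteum P2 replicate 3, with a pseudocount of 5 (5.16) or with quantile normalization (6.52). Periosteum P1 exceeded muscle P1 in Ibsp alone (3.79 ± 0.85, adjusted p = 0.00912), with 0.559% of all genes called higher. Spp1 had nearly the same value in that comparison, 3.80 ± 1.22, with an adjusted p of 0.0735. The Ibsp call was lost without muscle P1 replicate 1, at 3.44, and Spp1 was called, at 3.80, when bone marrow P2 replicate 1 or periosteum P2 replicate 1 was left out of the fit. In a fit of these 2 groups alone, Dmp1 was called and Ibsp was not (adjusted p = 0.0628). No member was called between periosteum P1 and bone marrow P1, where 4.87% of genes were called in either direction. The 4 differences there were -1.25 ± 1.22 for Spp1, -1.34 ± 0.85 for Ibsp, -1.20 ± 1.76 for Dmp1 and -3.03 ± 2.17 for Mepe, with adjusted p from 0.462 to 0.834 and unadjusted p from 0.129 to 0.501.

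In P3, the CD105+ cells, only Ibsp was called. Periosteum P3 exceeded muscle P3 in Ibsp by 3.73 ± 0.85 (adjusted p = 0.0143, with 0.851% of genes called higher), and Spp1 had 3.25 ± 1.22 (adjusted p = 0.138). Bone marrow P3 exceeded muscle P3 in Ibsp by 2.86 ± 0.85 (adjusted p = 0.0289, with 4.25% of genes called higher), and Spp1 had 0.77 ± 1.22. Both Ibsp calls were close to the threshold. The first was lost without muscle P3 replicate 1 (3.78) or replicate 3 (3.54), and the second without any one of the 6 P3 libraries of these tissues, with values from 2.45 to 3.07. No member was called between periosteum P3 and bone marrow P3 (6.94% of genes called in either direction). Ibsp had 0.87 ± 0.85 and Spp1 2.48 ± 1.22 (adjusted p = 0.240 by limma).

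Ordered by mean log2 level over the 9 groups, all 4 genes were highest in bone marrow P1, second in periosteum P1 and lowest in muscle P2. For Ibsp, 6 of the 8 steps between neighboring groups were larger than the larger SD of the pair; the exceptions were periosteum P1 to periosteum P3 and bone marrow P2 to periosteum P2. For Spp1, only the first and the last of 8 steps were beyond that spread, since periosteum P1, P3 and P2 stood at 15.23, 15.20 and 14.46. Dmp1 and Mepe each had 1 step beyond it, from bone marrow P1 to periosteum P1. The median SD over the groups on the log2 scale was 0.71 for Ibsp, 1.16 for Spp1, 2.01 for Dmp1 and 2.60 for Mepe. Dmp1 and Mepe had lower mean log2 levels than Spp1 in every group, and a larger median spread between replicates.

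The mix of the 4 transcripts was compared per length, by dividing each normalized count by the exon length of the gene in kb. In the P1 groups Ibsp made up 56.8% ± 4.11 (SD, n = 3) of the 4 genes in bone marrow P1, 55.0% ± 9.16 in periosteum P1 and 53.5% ± 20.4 in muscle P1. Spp1 took most of the rest, with 40.3% ± 3.88, 41.9% ± 8.76 and 42.6% ± 21.5 in the same order. Dmp1 accounted for 2.55% ± 0.701, 2.98% ± 1.87 and 3.69% ± 1.31, and Mepe for 0.291% ± 0.206, 0.0830% ± 0.0534 and 0.222% ± 0.226. In muscle P1 the Spp1 share ran from 20.0% to 62.7% over the 3 libraries. Outside P1, the Spp1 share was 91.0% ± 8.35 in periosteum P2, 73.7% ± 4.25 in muscle P2, 70.3% ± 5.0 in muscle P3 and 63.3% ± 11.6 in periosteum P3. Bone marrow P2 and P3 were uneven, with Spp1 shares of 55.2% ± 31.6 and 39.7% ± 23.6. In periosteum P3, Dmp1 was 0.166% ± 0.268 of the mix.

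**Figure D3:**
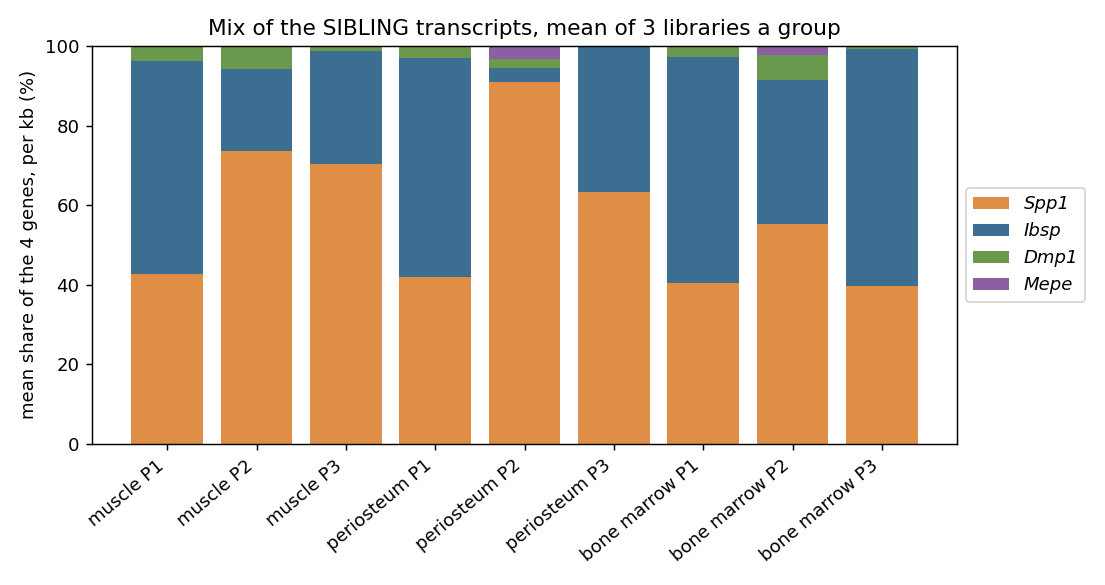
Mean share (%) of each gene in the sum of the 4 SIBLING genes, per kb of exon, in each group of 3 libraries. Ibsp held 53.5% to 56.8% in the P1 groups, and Spp1 held 91.0% in periosteum P2.

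The ratio of Ibsp to Spp1 normalized counts, without a length correction, was also taken in each library to compare groups. The mean log2 ratio was 0.82 ± 0.24 (SD, n = 3) in bone marrow P1, 0.73 ± 0.55 in periosteum P1 and 0.73 ± 1.40 in muscle P1. It was -6.25 ± 3.73 in periosteum P2, where the 3 libraries ran from -10.25 to -2.88. Muscle P2 and P3 stood at -1.55 ± 0.28 and -0.99 ± 0.37, periosteum P3 at -0.50 ± 0.75, bone marrow P2 at -0.76 ± 2.76 and bone marrow P3 at 1.10 ± 1.74. Col2a1 was 240598 to 590511 in the 3 libraries of periosteum P2 and 62224 to 359279 in those of periosteum P1, and the part of cartilage RNA in these ratios was not tested. The ratios are a description.

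**Figure D4:**
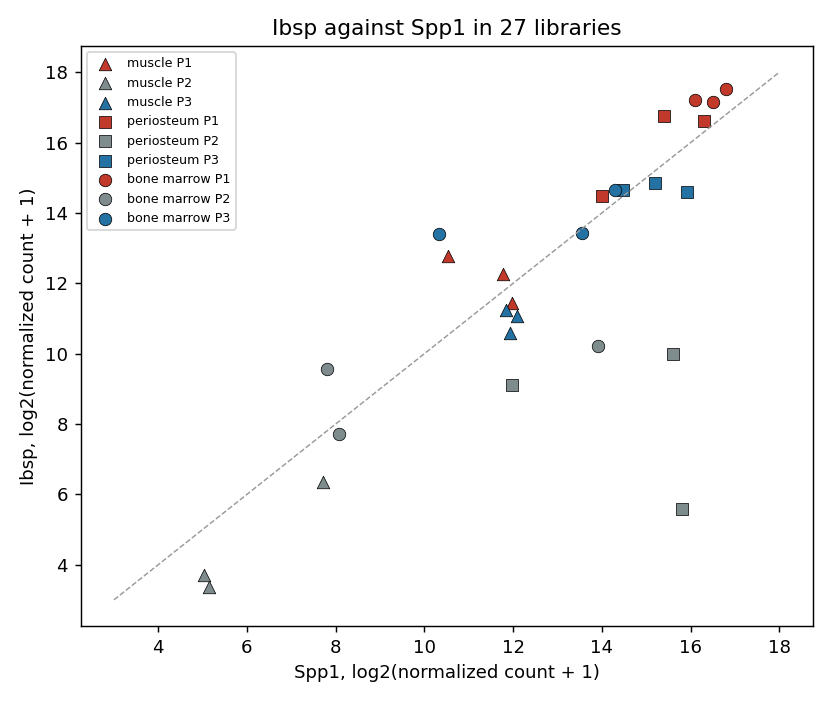
Ibsp against Spp1, both as log2(normalized count + 1), in 27 libraries; colors give the population, symbols the tissue, and the dashed line marks equal values, not per length. All 3 periosteum P2 libraries lay below the line, at log2 ratios from -10.25 to -2.88, and the muscle P2 and P3 libraries lay nearer to it, with mean ratios of -1.55 and -0.99.

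Across the 27 libraries, the Pearson correlation of the log2 values was 0.77 for Spp1 and Ibsp, 0.71 for Spp1 and Dmp1, 0.63 for Dmp1 and Mepe, 0.59 for Ibsp and Dmp1, 0.55 for Spp1 and Mepe and 0.49 for Ibsp and Mepe. The adjacent genes Ibsp and Mepe, 13859 bp apart, therefore had the lowest correlation of the 6 pairs. Libraries of the same group and animal are not independent, so these are descriptions. The 5 genes most like Spp1 over the libraries were Mmp13 (r = 0.92), the collagenase of hypertrophic cartilage and osteoblasts, Sp7 (0.87), the osteoblast transcription factor osterix, Col11a1 (0.87), Alg5 (0.85) and Col11a2 (0.85), the last with Col11a1 a fibrillar collagen chain of cartilage. Those most like Ibsp were Cdh2 (0.94) and Cdh11 (0.93), the cadherins of osteoblasts, followed by Wisp1 (0.93), a secreted matricellular protein, Tnc (0.92), the matrix protein tenascin C, and Cdo1 (0.91). Dmp1 was closest to Rab11fip4 (0.83), Itga10 (0.83), H2-DMb1 (0.82), Sdc3 (0.81) and the Wnt co-receptor gene Lrp5 (0.80). Mepe was closest to Proser2 (0.78), Zcwpw1 (0.76), Myo5a (0.74), Gm16332 (0.73) and Prex1 (0.73). No gene was among the 5 of more than 1 member.

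For P1 against P2 and P3, the other genes within 500 kb of the cluster were called about as often as all genes. Of the 11 that passed the filter (Aff1, Klhl8, Hsd17b13, Hsd17b11, Nudt9, Sparcl1, Pkd2, BC005561, D930016D06Rik, Zfp951 and Abcg3), 2 were called for P1 against P2 and P3 in bone marrow, 1 in periosteum and 0 in muscle, where the share of all genes called higher or lower was 7.48% and 11.5%, 4.32% and 4.84%, and 0.591% and 0.455%. Pkd2, the polycystin 2 gene next to Spp1, was higher in bone marrow P1 by 1.92 ± 0.59 (adjusted p = 0.0234), and Abcg3 was lower by 4.12 on the same scale, at -4.12 ± 1.37. BC005561 was higher in periosteum P1 by 6.02 ± 1.22 (adjusted p = 0.00207). Their Pearson correlations with Ibsp ran from -0.58 for Abcg3 to 0.40 for BC005561 and Pkd2. Sparcl1 encodes a secreted relative of osteonectin. Over the P1 groups it had the opposite tissue order to Ibsp, with mean normalized counts of 11.6 in bone marrow, 1356 in periosteum and 16023 in muscle. Over all 27 libraries the Pearson correlation of Sparcl1 with Ibsp was only -0.16. The Sparcl1 difference between bone marrow P1 and muscle P1 was -10.40 ± 1.13 (adjusted p = 9.10e-07, limma).

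Transcription factors of the osteoblast lineage, several of them known to act on SIBLING promoters (Runx2, Cbfb, Sp7, Dlx3, Dlx5, Msx2, Mef2c, Atf4, Vdr, Hey1, Smad1), were higher in bone marrow P1 in 9 of 11 cases and lower in 0, with a list median of 3.79 against -0.39 for all genes. Sp7 differed by 6.83 ± 1.15 (adjusted p = 0.000136), Mef2c, a MADS-box factor, by 6.70 ± 1.81 (adjusted p = 0.0102) and Runx2, the factor that starts osteoblast differentiation, by 3.68 ± 0.99 (adjusted p = 0.00976). In periosteum only Hey1, a Notch target, was called (3.95 ± 1.11), at a list median of 3.50. In muscle 0 of 11 were called by limma. The shares of all genes called higher in bone marrow, periosteum and muscle were 7.48%, 4.32% and 0.591%. Between bone marrow P1 and muscle P1, 3 of 11 were higher, which were Sp7 (5.39 ± 1.33), Runx2 (4.64 ± 1.14) and Dlx3 (6.24 ± 1.91). Between periosteum P1 and muscle P1, and between periosteum P1 and bone marrow P1, 0 of 11 were called. Among all genes, 2.94% were called higher in bone marrow P1 than in muscle P1. For periosteum P1 against muscle P1, 0.559% were called higher and 4.34% lower. Between periosteum P1 and bone marrow P1, 4.87% were called in either direction.

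The next list held 15 genes for enzymes and cofactors that can phosphorylate, cross-link or cleave bone matrix proteins. Of these, 6 were higher and 2 lower in bone marrow P1, 3 were higher in periosteum P1 and 0 were called in muscle. Of all genes, 7.48% were called higher and 11.5% lower in bone marrow P1, and 4.32% and 4.84% in periosteum P1. In muscle these shares were 0.591% and 0.455%. Mmp2, the gelatinase that binds bone sialoprotein, rose by 7.69 ± 0.35 (adjusted p = 1.65e-13) in bone marrow P1 and by 2.11 ± 0.35 in periosteum P1. Mmp14, which activates MMP2, was higher in bone marrow P1 by 5.52 ± 0.61. Phex, the endopeptidase that cleaves SIBLING peptides, was higher by 3.95 ± 0.87 in bone marrow P1 and 4.88 ± 0.87 in periosteum P1, and by 3.98 ± 1.0 in bone marrow P1 against muscle P1. Fam20c, the kinase that phosphorylates these proteins, was higher in bone marrow P1 by 4.67 ± 0.81, and Bmp1, the proteinase that processes DMP1, by 5.60 ± 0.76. The collagen-degrading cathepsin Ctsk was the sixth. Plau and F2, both serine proteinases, were lower. Plau and Mmp3 were higher in muscle P1 than in the P1 of either bone compartment, and Tgm2, a cross-linking transglutaminase, was lower in bone marrow P1 than in muscle P1.

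Receptors of SIBLING proteins (Itgav, Itgb1, Itgb3, Itgb5, Itga4, Itga5, Itga8, Itga9, Cd44) showed no common direction. The shares of all genes called higher and lower were 7.48% and 11.5% in bone marrow and 4.32% and 4.84% in periosteum. In muscle they were 0.591% and 0.455%. In bone marrow P1, Itgb1 was higher by 1.62 ± 0.30 (adjusted p = 0.000436) and Itga4, an integrin chain of blood cells, was lower, at -5.46 ± 0.59. In periosteum P1, Itga8 was higher (4.55 ± 1.23), and Itga4 (-2.69 ± 0.59) and Itga9 (-2.71 ± 0.81) were lower. None of 9 was called in muscle or between periosteum P1 and the P1 of either other tissue, and Itga5 and Itga8 were lower in bone marrow P1 than in muscle P1. Among all genes, 4.87% were called in either direction between periosteum P1 and bone marrow P1. Against muscle P1, 0.559% were called higher and 4.34% lower in periosteum P1, and 5.4% lower in bone marrow P1. Itga4 averaged 2319 in periosteum P2 and 5021 in bone marrow P2, the groups with the most erythroid RNA, against 176 and 91.1 in the P1 groups of these tissues; the part of blood cell RNA was not tested.

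Among 9 tested genes of phosphate and mineral handling, 4 were higher and 1 lower in bone marrow P1. In periosteum P1 3 were higher, and in muscle 0 were called. The shares of all genes called higher and lower were 7.48% and 11.5% in bone marrow and 4.32% and 4.84% in periosteum. In muscle they were 0.591% and 0.455%. Alpl, the alkaline phosphatase that removes the mineral inhibitor pyrophosphate, was higher by 5.96 ± 0.46 in bone marrow P1 and 2.76 ± 0.46 in periosteum P1. Smpd3, a sphingomyelinase needed for bone mineral, was higher by 6.85 ± 0.56 and 1.89 ± 0.56. Phospho1, a phosphatase of matrix vesicles, and in bone marrow Fetub were the other genes called higher. Slc20a1, a phosphate transporter, was lower in bone marrow P1 by 4.11 on the log2 scale, at -4.11 ± 0.54. Against muscle P1, 3 genes were higher in both periosteum P1 and bone marrow P1 (Alpl, Smpd3 and Phospho1), and 1 was lower in bone marrow P1. Among all genes, 0.559% were called higher in periosteum P1 than in muscle P1. In bone marrow P1 against muscle P1, 2.94% were called higher and 5.4% lower.

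Osteoblast and osteocyte markers were read beside the members. All 7 osteoblast markers were called higher in bone marrow P1, 6 in periosteum P1 and 2 in muscle P1 (Bglap at 6.42 ± 0.85 and Bglap2 at 6.36 ± 0.91, both osteocalcin genes). Of 6 tested osteocyte markers, 4 were higher in bone marrow P1 (Phex, Irx5, Dkk1 and Pdpn), 1 in periosteum P1 (Phex) and 0 in muscle P1. Among all genes, 7.48%, 4.32% and 0.591% were called higher in P1 of bone marrow, periosteum and muscle. Sums of the osteocyte list were 3840 to 5409 in bone marrow P1, 1791 to 2970 in periosteum P1 and 933 to 1360 in muscle P1. The sum was at most 789 in any other library. Phex averaged 3114, 1585 and 196 in these P1 groups, and Irx5 and Ptprz1 ran the same way. Pdpn ran the other way, at 74.7, 450 and 767. Against muscle P1, 0 of 6 osteocyte markers were called in periosteum P1, and 3 were higher and 1 lower in bone marrow P1. Among all genes, 0.559% were called higher and 4.34% lower in that periosteum comparison. In the bone marrow comparison these shares were 2.94% and 5.4%. Alpl, Sp7, Phospho1 and Phex each stand in more than 1 of these lists.

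Lists of other cell types were read in the same way for P1 against P2 and P3. The chondrocyte list had 4 of 7 genes higher in bone marrow (Col2a1, Pth1r, Sox9 and Mmp13), 1 in periosteum (Col10a1) and 0 in muscle. Of 7 tested osteoclast genes, 1 was higher in each tissue, namely Calcr in muscle and, in periosteum and bone marrow, Ctsk, which mesenchymal cells also express; Acp5, which defines osteoclasts, was not called in any. The shares of all genes called higher in muscle, periosteum and bone marrow were 0.591%, 4.32% and 7.48%. Those called lower were 0.455%, 4.84% and 11.5% in the same order. Erythroid genes were lower, at 7 of 8 in muscle and 8 of 8 in both bone compartments, and endothelial genes were lower in 0, 6 and 7 of 7. Macrophage genes were lower in 0, 1 and 2 of 8, leukocyte genes in 0, 0 and 2 of 7 and myofiber genes in 0, 1 and 1 of 7. Of the mural genes, 1 of 7 was higher in each tissue (Acta2 in muscle, Myh11 in periosteum and Cspg4 in bone marrow). For P1 against P2 and P3, erythroid and endothelial RNA thus moved opposite to Ibsp in bone marrow and periosteum. Between P2 and P3 of periosteum, endothelial RNA moved with Ibsp instead. Endothelial sums were 478 to 2123 in P2 and 18192 to 37121 in P3, with Ibsp at 47.4 to 1014 and 24803 to 29677. Median endothelial sums in bone marrow were 2773 in P2 and 5659 in P3, with overlapping ranges. The part of this RNA in the SIBLING differences was not tested.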

How the data were processed

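RNA-seq was made from 27 FACS-sorted cell samples (9 groups, 3 replicates), with SMART-Seq v4 cDNA and Nextera XT libraries on an Illumina HiSeq. Per the study's methods, the authors trimmed reads with Trim Galore, aligned them with STAR and normalized with DESeq2; the counter, annotation and build were not given in the sources used here. The deposited table holds normalized counts, a signal per gene with 30154 entries. One entry for transgenes, at most 0.213% of a library, was left out. Whole reads could not be recovered from the values, so depth is known only as sums of normalized counts and no counting intervals are given.

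Groups came from the sample titles. Genes with at least 10 in at least 3 libraries (18442) were fitted as log2(value + 1) with limma 3.58.1 (lmFit, eBayes with trend) in R 4.3.3, with 1 mean per group over 27 libraries. The count tests that the study used need raw counts. A gene was called at an adjusted p (Benjamini-Hochberg, all genes tested) under 0.05 and an absolute log2 fold change over 1.5. Fold changes are on the log2(value + 1) scale, which understates changes of low genes. On simulated data for P1 against P2 and P3 in bone marrow (18442 genes, 200 changed by 3 on the log2 scale), 57 of the changed genes and 1 other were called, all 57 in the right direction. Apart from that change, each simulated gene had the same mean and spread in all groups. In the real data the log2 SD of Spp1 ran from 0.13 to 3.45 over the groups. The simulated calls therefore do not give the error rate of the real data.

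The members and gene lists were chosen with earlier results of these data known. Genes named are the 4 members, Dspp and annotated genes within 500 kb, the 5 genes most like each member over the libraries, and up to 4 genes of highest mean in each list; further genes named from the lists were chosen after their values were seen. One gene of the transcription factor list is not reported here. Replicate numbers did not pair the libraries. Alternatives were another pseudocount (0.1 or 5), no filter or a mean of at least 50, a replicate block, no variance trend, 3 other scalings, a fit of the compared groups alone, a fold threshold of 1, P2 or P3 alone as the comparator, and each library left out in turn. Positions and exon lengths are from GENCODE M21 (29732 identifiers matched) and promoters from RefSeq, GRCm38.p6. Python 3.11.15, numpy 2.4.6, pandas 2.3.3 and matplotlib 3.10.9 were used.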

Additional observations from a re-analysis of the deposited data

How the results depend on the processing

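The count of members called moved with several choices. For P1 against P2 and P3 in muscle it was 1, but 3 with the compared groups alone, 3 against P2 alone and 0 against P3 alone, where Spp1 turned to -0.53. In periosteum it was 2, but 1 with a pseudocount of 0.1, no filter, no variance trend, quantile normalization, P2 alone or P3 alone, and 0 with the compared groups alone. It was 4 in place of 2 for P1 of bone marrow against muscle, and 2 in place of 1 for P3 of periosteum against muscle, with the compared groups alone. For P3 of bone marrow against muscle it was 0 in place of 1 with no filter or without the variance trend. Leaving out 1 library gave 1 to 2 members in periosteum, 3 to 4 in bone marrow, 0 to 2 for P1 of periosteum against muscle, 0 to 1 for P3 of periosteum or bone marrow against muscle, and 0 to 1 for the difference between bone marrow and periosteum; Spp1 then ran from -0.23 to 1.01 in periosteum and from -0.015 to 1.97 for P3 of bone marrow against muscle.

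Same-numbered libraries did not deviate together (mean r 0.000242 over 36 pairs of groups). With the replicate block, 4 members in place of 3 were called in bone marrow, where Mepe at 5.07 passed, and the counts of members in the other comparisons did not change. Under 3 other scalings, all 11 called member results kept their direction and 32 of 33 kept their call; these scalings moved the median of all genes by -0.92 to 0.73.

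Calls over all genes also moved by over 1.5 times. With the compared groups alone they were 907 in place of 193 in muscle, 216 in place of 1690 in periosteum and 5720 in place of 3494 in bone marrow for P1 against P2 and P3, 2862 in place of 1538 for P1 of bone marrow against muscle, 1275 in place of 645, 4575 in place of 1916 and 587 in place of 1280 for P3 (periosteum against muscle, bone marrow against muscle, periosteum against bone marrow), and 212 in place of 450, 3932 in place of 1366 and 173 in place of 516 for the 3 differences of the P1 change. P2 alone gave 1514, 3521 and 6272 and P3 alone 86, 771 and 1218 for the 3 tissues. In muscle a pseudocount of 0.1 gave 126 and one of 5 gave 305, and rescaled totals without globins gave 2176 in place of 1366 for bone marrow minus muscle.

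Of the calls over all genes, the share that was higher moved by over 10 points with scaling. For P1 against P2 and P3 it was 56.5% in muscle, but 71.3% with rescaled totals and 71.6% without globins. It was 47.2% in periosteum (36.6% without globins) and 39.5% in bone marrow (28.2%, 17.3% without globins and 51.8% with quantile normalization). For P1 it was 11.4% for periosteum against muscle (33.4% with quantiles), 35.2% for bone marrow against muscle (19.6% with either rescaling) and 39.3% for periosteum against bone marrow (57.0% to 59.3%). For P3 it was 24.3% for periosteum against muscle (54.9% with quantiles) and 40.9% for bone marrow against muscle (51.0% without globins, 52.0% with quantiles). The 3 differences of the P1 change, at 36.0%, 43.8% and 55.2%, fell to 15.8%, 11.4% and 27.3% without globins.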
